A study of Mus musculus with 47 samples.

Results

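The transcripts of 10 receptor and adaptor genes of the immunoglobulin-like receptor families of macrophages were followed in 12 RNA-seq libraries of a study of the chromatin reader ZMYND8. The genes were the Fc receptors Fcgr1, Fcgr2b, Fcgr3 and Fcgr4, the signalling adaptors Fcer1g and Tyrobp, the TREM receptors Trem1 and Trem2, and the paired Ig-like receptors Pira2 and Pirb. They were selected by gene symbol, with earlier results on these libraries already known, and all 10 were found among the 51912 genes of the tables for bone-marrow-derived macrophages (BMDMs) and in each of the 4 tables for Raw264.7 lines, which list between 12769 and 23770 genes. Because the selection was made with measured values in view, the levels and fold changes given here are descriptions of the libraries.

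Fc gamma receptors bind the constant part of IgG, so that a macrophage senses and engulfs antibody-coated particles. Fcgr1, Fcgr3 and Fcgr4 are activating receptors that reach the cell surface and signal through the common gamma chain, Fcer1g, whose ITAM (an activating tyrosine motif) recruits the kinase Syk. Fcgr2b carries an ITIM (an inhibitory tyrosine motif) that recruits the lipid phosphatase SHIP1 and dampens those signals. Trem1, an amplifier of inflammatory responses, and Trem2, a lipid and lipoprotein receptor of tissue macrophages, signal through the second ITAM adaptor, Tyrobp (DAP12). The PIR-A receptors, of which Pira2 is one, pair with Fcer1g, whereas PIR-B, the product of Pirb, has ITIMs and recruits the phosphatases SHP-1 and SHP-2.

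BMDMs came from C57BL/6 mice, either Zmynd8 fl/fl littermates without Cre (WT) or Zmynd8 cKO mice, in which exons 6 and 7 of Zmynd8 are floxed and Cre is driven from the Lyz2 locus in myeloid cells, with 1 Cre allele. Marrow was grown for 5 days in M-CSF at 20 ng/ml, and the macrophages were then left non-treated (NT) or given LPS at 100 ng/ml or IL-4 at 20 ng/ml for 6 hours. Each of these 6 libraries was a mixture of 3 biological replicates, and the age and sex of the mice are not stated in the sources used here. Raw264.7, a mouse macrophage-like line, was edited with lentiCRISPR. In one set, Zmynd8 KO cells were sequenced as such, with WT Zmynd8 put back, or with the D/E-A mutant put back. In the other set, labelled as treated with LPS, p65 KO cells (p65 is the NF-κB subunit encoded by Rela) were sequenced as such, with WT p65 put back, or with p65 carrying K122R put back. The labels of the 3 Zmynd8-line libraries name no treatment, while the study's text describes LPS-treated cells for the WT Zmynd8 and D/E-A libraries and states none for the KO. The heading of the WT p65 column names wild-type cells with LPS and no knockout, and it was matched to the WT p65 sample as the only wild-type LPS sample of this line.

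Every condition was a single library, so no condition has an SD. No test between conditions was run, since the genes were chosen with these contrasts in view, and a model of genotype plus treatment over the 6 BMDM libraries was not fitted. Levels are given as CPM, the counts or reads of a gene scaled to a library total of 1000000, or, where genes are compared with each other in BMDMs, as TPM, which also corrects for length. Differences are given as log2 fold changes with 95% limits from the exact Clopper-Pearson interval, which cover counting error only and not the spread between cultures. A gene was called higher or lower from 1.2-fold, the limit in the study's methods. The legend of the study's RNA-seq heatmap instead gives a log2 fold change above 1.2. The BMDM libraries held 22597408 to 28386612 counts and the Raw264.7 libraries 15127110 to 21040837 reads. In a bulk library, fewer cells of a type and less RNA per cell cannot be told apart.

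Several libraries stood apart from their labels. Zmynd8 itself, the targeted gene, gave 87.1 CPM in WT and 81.5 in cKO with NT, 79.0 and 86.8 with LPS, and 128 and 151 with IL-4. These whole-gene counts check nothing, because they cover far more than the 2 floxed exons. In the Raw264.7 tables the deposited Zmynd8 value was 506 with WT Zmynd8, 509 with D/E-A and 116 in the Zmynd8 KO. The last was the only value of its column that was not a whole number of reads, so it was not used. Rela stood at 102 CPM with WT p65, 351 with K122R and 50.6 in the p65 KO. The 3 Zmynd8-line libraries, labelled Raw264.7, held 338 to 460 CPM of Xist, the RNA of the inactive X chromosome, and summed neutrophil markers of 5015 to 10876 CPM over all 11 markers. The 3 p65-line libraries held at most 0.198 of Xist and 5.62 to 27.4 of neutrophil markers over the 4 markers listed there. The macrophage kinase Mertk was represented by only 2 to 4 reads in the p65 lines. Values are therefore compared within each set and never between the sets. The BMDM libraries carried macrophage markers throughout (8345 to 19784 CPM over 9 markers).

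The genes lie on 4 chromosomes. On GRCm38, the build named mm10 in the methods, Fcgr2b (chr1:170958617-170976547, minus strand), Fcgr4 (chr1:171018920-171029761, plus strand), Fcgr3 (chr1:171051174-171064935, minus strand) and Fcer1g (chr1:171229572-171234365, minus strand) form a cluster on chromosome 1, while Fcgr1 lies alone at chr3:96282909-96293969 on the minus strand. Pirb (chr7:3711409-3720391, minus strand) and Pira2 (chr7:3836812-3845051, minus strand) lie in the paired-receptor cluster at the start of chromosome 7, and Tyrobp lies farther along at chr7:30413760-30417585 on the plus strand. Trem1 (chr17:48232768-48246924) and Trem2 (chr17:48346401-48354147) are neighbours on the plus strand of chromosome 17.

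The first sequences to set beside the values are the 250 bases before the RefSeq start of Pira2 and Pirb, because these neighbours are alike in sequence and differed in level. They come from RefSeq on GRCm38.p6, at chr7:3845052-3845301 and chr7:3720383-3720632, and are written 5′ to 3′ on the minus strand. The capitals mark GAGGAAGT, a purine-rich word of the kind bound by PU.1, the lineage factor of macrophages. 
Pira2: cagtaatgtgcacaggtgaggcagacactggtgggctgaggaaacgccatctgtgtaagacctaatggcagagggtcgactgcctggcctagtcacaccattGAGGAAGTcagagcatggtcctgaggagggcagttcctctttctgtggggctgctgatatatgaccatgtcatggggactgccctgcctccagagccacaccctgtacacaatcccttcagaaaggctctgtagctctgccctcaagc
Pirb: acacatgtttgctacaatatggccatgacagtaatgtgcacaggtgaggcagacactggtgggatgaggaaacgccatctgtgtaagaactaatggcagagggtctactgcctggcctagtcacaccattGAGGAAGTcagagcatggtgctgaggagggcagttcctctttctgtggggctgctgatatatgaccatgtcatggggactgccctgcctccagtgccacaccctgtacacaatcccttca
In a common order, 217 of the 250 bases (86.8%) were shared by Pira2 and Pirb, whereas 3 other pairs among the Fc receptors shared 150 to 157 of 250. Gaps cost nothing in this count, so it runs high for unlike sequences too, and the values of the Fc receptor pairs are no sign of likeness. Position by position without gaps, Pira2 and Pirb had 65 equal bases and the other pairs 49 to 59.

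The second pair of promoters is that of Fcgr1 (chr3:96293970-96294219, minus strand) and Fcgr4 (chr1:171018676-171018925, plus strand), which rose and fell in the same BMDM libraries. In Fcgr1 the capitals mark TTCNNNGAA, a word of the kind bound by STAT factors. In Fcgr4 they mark, in order, a pair of GAAA words with 2 bases between them, of the kind bound by interferon-response factors, and ACTTCCTC, which is GAGGAAGT read on the other strand.
Fcgr1: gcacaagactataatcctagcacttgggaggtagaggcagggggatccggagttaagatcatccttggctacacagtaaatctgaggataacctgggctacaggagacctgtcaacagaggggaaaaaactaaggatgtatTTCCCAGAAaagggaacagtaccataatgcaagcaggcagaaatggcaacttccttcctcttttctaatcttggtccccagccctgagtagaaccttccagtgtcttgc
Fcgr4: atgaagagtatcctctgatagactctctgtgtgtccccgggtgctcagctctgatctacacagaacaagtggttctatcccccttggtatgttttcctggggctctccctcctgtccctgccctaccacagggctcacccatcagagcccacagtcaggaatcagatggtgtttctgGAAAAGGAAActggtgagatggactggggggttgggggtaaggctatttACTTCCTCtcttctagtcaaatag
A promoter entry was held for 9 of the 10 genes, and 7 words were searched on both strands. GAGGAAGT was found in 3 of them (Fcgr4, Pira2, Pirb) and in 2.79% of the promoters of 27025 genes, TTCNNNGAA in 2 (Fcgr1, Trem1) and 8.13%, the pair of GAAA words in 1 (Fcgr4) and 3.46%, TGANTCA in 1 (Trem2) and 7.82%, and TTGCNNAA in 1 (Fcgr3) and 10.8%. TTC and GAA with 4 bases between them, the STAT6 type (6.76%), and the NF-κB consensus word (0.159%) were in none of the 9. A match in these windows is a description of the letters there and not a bound site.

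In non-treated WT BMDMs the adaptors were the most abundant of the 10 transcripts per length. Tyrobp stood at 2794 TPM and Fcer1g at 1971 TPM, followed by Trem2 at 1473 TPM. The activating receptors Fcgr3 (525 TPM) and Fcgr1 (486 TPM) came next and lay within 1.2-fold of each other, then Pirb (280.0 TPM), Fcgr4 (156 TPM), Pira2 (80.3 TPM) and the inhibitory Fcgr2b (44.9 TPM). Trem1 was near the limit of detection, with 6 counts in the whole library (0.12 TPM).

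LPS for 6 hours raised all 3 activating Fc receptors, the inhibitory Fcgr2b, Fcer1g, Pirb and the scarce Trem1, and lowered Tyrobp, Trem2 and Pira2, in WT and in cKO BMDMs. In WT cells 7 of the 10 genes were higher and 3 lower, and none stayed within 1.2-fold, beside 22.9% higher and 64.8% lower among the 12813 genes compared. In cKO cells the counts were again 7 and 3, beside 26.0% and 61.7% of 12666 genes. Over the 10 genes the log2 fold changes had a median of 1.33 in WT and 1.10 in cKO, and over all genes -0.70 and -0.65. With median-ratio scaling in place of library totals, all genes shifted up by 0.61 in WT and 0.58 in cKO (log2), and the shares became 38.1% higher and 44.1% lower in WT and 39.8% and 44.0% in cKO. Under that scaling the 7 and 3 held in WT, and in cKO Pira2 came to 0.02 and left 7 higher and 2 lower. Both treatments are compared with the same NT libraries.

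Fcgr4, the receptor for IgG2a and IgG2b complexes, had the widest range of the 10 over the BMDM libraries. It gave 111 CPM in WT NT, 59.4 in cKO NT, 928 in WT LPS, 861 in cKO LPS, 13.6 in WT IL-4 and 19.2 in cKO IL-4. The highest library, WT LPS, was 68.1-fold above the lowest, WT IL-4, and the libraries fell into 3 levels by treatment. LPS raised Fcgr4 by 3.06 (log2, 8.35-fold) in WT and by 3.86 (14.5-fold) in cKO, and IL-4 lowered it by 8.16-fold in WT and 3.10-fold in cKO. 

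Fcgr1, the high-affinity receptor, followed the same order of libraries. Its CPM values were 788 in WT NT, 448 in cKO NT, 1939 in WT LPS, 1735 in cKO LPS, 127 in WT IL-4 and 153 in cKO IL-4. LPS raised it 2.46-fold in WT and 3.87-fold in cKO, and IL-4 lowered it 6.19-fold in WT and 2.93-fold in cKO. For both genes the cKO NT library was the lower of the NT pair, so the rise with LPS is counted from a lower start in cKO and the fall with IL-4 too.

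Fcgr3, the low-affinity activating receptor, varied least among the receptors. It stood at 407, 476, 1058, 956, 427 and 359 CPM in WT NT, cKO NT, WT LPS, cKO LPS, WT IL-4 and cKO IL-4, an order used for the lists of values that follow. LPS raised it 2.60-fold in WT and 2.01-fold in cKO. With IL-4 the log2 fold change was 0.07 in WT, within 1.2-fold, and -0.41 in cKO, 1.32-fold lower. Fcgr3 and Fcgr2b share 166 transcript words of 50 bases, which are 9.58% of those of Fcgr3 and 2.92% of those of Fcgr2b, so a small share of single-end reads could fall to either gene, and none of the words of Fcgr1 or Fcgr4 is shared.

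Fcgr2b was the member that IL-4 raised most. It gave 50.6, 47.5, 348, 269, 704 and 865 CPM, so that both IL-4 libraries lay above both LPS libraries and these above both NT libraries. IL-4 raised it by 3.80 (log2, 13.9-fold) in WT and 4.19 (18.2-fold) in cKO, and LPS by 2.78 (6.87-fold) and 2.50 (5.66-fold). On the TPM scale the 3 activating receptors summed to 26.0 times Fcgr2b in WT NT and 23.6 times in cKO NT. That ratio was 11.4 and 13.4 with LPS, and 1.02 and 0.768 with IL-4, so the IL-4 libraries held about as much transcript of the inhibitory receptor as of the activating ones together.

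**Figure D1:**
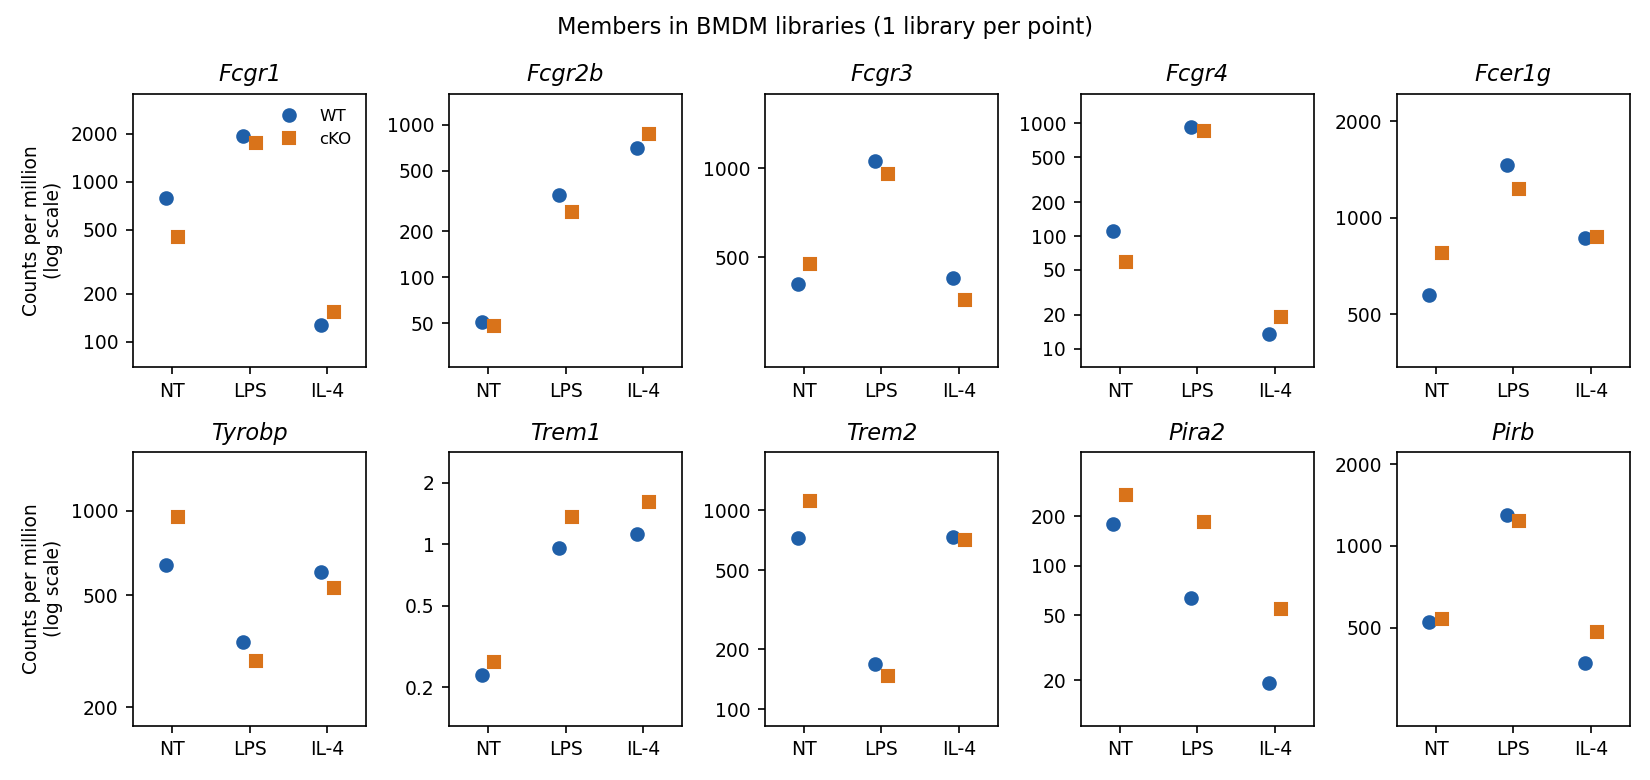
CPM (log scale, its range set for each gene) of the 10 genes in the 6 BMDM libraries by treatment, with circles for WT and squares for Zmynd8 cKO and 1 library per point. Fcgr1 and Fcgr4 are highest with LPS and lowest with IL-4, Fcgr2b is highest with IL-4, Trem2 and Tyrobp are lowest with LPS, and the squares of Pira2 lie above the circles in each treatment.

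The adaptors moved in opposite directions with LPS. Fcer1g, the partner of the Fc receptors and of PIR-A, gave 573, 774, 1455, 1228, 867 and 872 CPM and was 2.54-fold higher with LPS in WT and 1.59-fold in cKO. Tyrobp, the partner of the TREM receptors, gave 640.2, 953, 342, 292, 606 and 530.1 CPM and was 1.87-fold lower in WT and 3.27-fold lower in cKO. The ratio of Fcer1g to Tyrobp in TPM was thus 0.706 and 0.639 in the NT libraries and 3.38 and 3.34 in the LPS libraries, while the sum of both ran only from 4765 to 6143 TPM over all 6 libraries. In log2, the change of Tyrobp with LPS was -0.905 in WT and -1.71 in cKO, beside medians of -0.70 and -0.65 over all genes. Under median-ratio scaling Tyrobp stayed lower in both, though all genes shifted up by 0.61 in WT. With IL-4 the ratio of Fcer1g to Tyrobp was 1.13 in WT and 1.30 in cKO. In IL-4 against NT, Fcer1g was 1.51-fold higher in WT and within 1.2-fold in cKO (log2 0.17), and Tyrobp was within 1.2-fold in WT (-0.08) and 1.80-fold lower in cKO.

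The TREM receptors differed from each other by level and direction. Trem2 gave 724, 1112, 168, 146, 733 and 709 CPM, so the LPS libraries lay below all others. LPS lowered it 4.30-fold in WT and 7.62-fold in cKO, and with IL-4 it was within 1.2-fold in WT (0.02) and 1.57-fold lower in cKO. In TPM, Trem2 went with LPS from 1473 to 343 in WT and from 1697 to 342 in cKO, so the genotypes differed less on that scale. Trem1 held 6, 6, 24, 32, 32 and 42 counts, and with so few reads the 95% limits were wide. Its log2 fold change with LPS in WT was 1.99 (0.75 to 3.65) and with IL-4 2.21 (1.02 to 3.85), and in the cKO it was 2.27 (1.09 to 3.91) and 2.50 (1.36 to 4.12).

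The activating and the inhibitory paired receptor moved apart with LPS. Pira2 gave 179, 269, 63.8, 183, 19.4 and 54.1 CPM and Pirb 526, 541, 1300.5, 1232, 372 and 481. LPS lowered Pira2 2.80-fold in WT and 1.47-fold in cKO and raised Pirb 2.47-fold and 2.28-fold. Under median-ratio scaling Pira2 stayed lower in WT but lay within 1.2-fold in cKO, and Pirb stayed higher in both. IL-4 lowered Pira2 9.23-fold in WT and 4.97-fold in cKO, and Pirb 1.41-fold in WT, while Pirb was within 1.2-fold in cKO at -0.17 by library totals and lower at -0.36 by median ratio. The ratio of Pirb to Pira2 in TPM was 3.49 in WT NT, 2.47 in cKO NT, 24.5 in WT LPS, 7.99 in cKO LPS, 20.9 in WT IL-4 and 9.50 in cKO IL-4, and in each treatment the cKO library had the lower ratio.

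**Figure D2:**
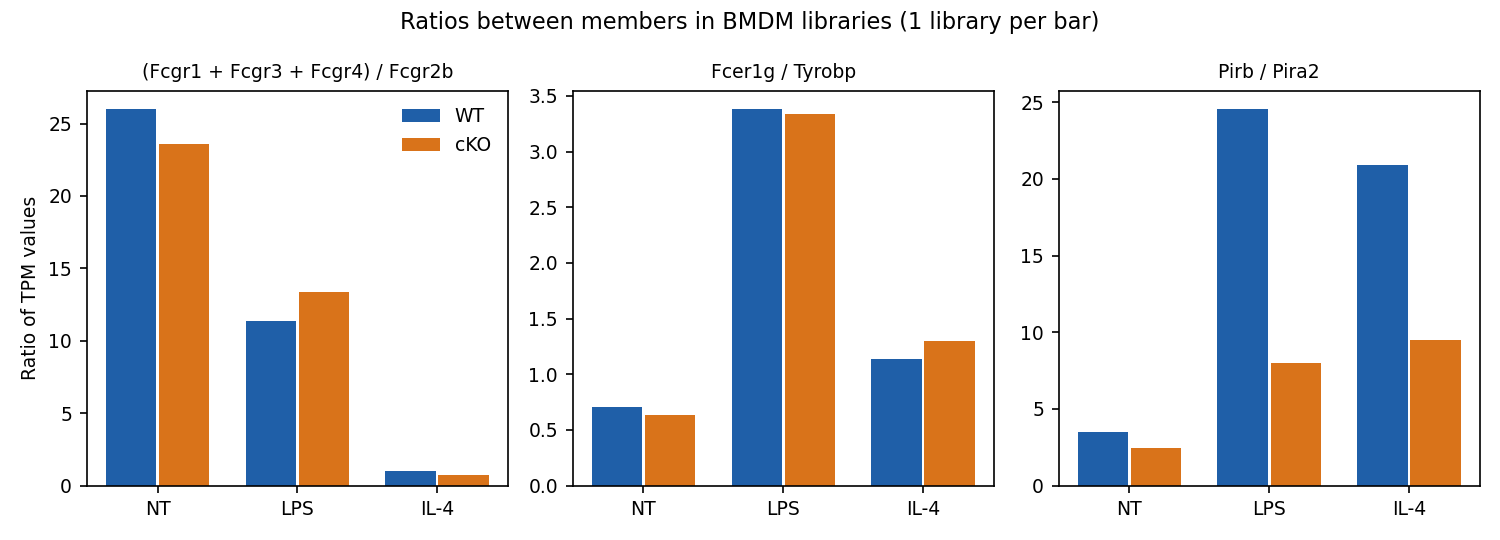
Ratios of TPM values in the 6 BMDM libraries, 1 library per bar, for WT and Zmynd8 cKO. The activating Fc receptors against Fcgr2b fall from 26.0 in WT NT to 0.768 in cKO IL-4, Fcer1g against Tyrobp is highest with LPS (3.38 in WT), and Pirb against Pira2 is lower in the cKO in each treatment.

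IL-4 left the 10 genes divided. In WT 3 of 10 were higher, 4 lower and 3 within 1.2-fold, beside 43.9% higher and 24.8% lower among 13090 genes, and in cKO 2 were higher and 6 lower, beside 46.7% and 27.8% of 12966. The medians of the 10 genes were -0.03 and -0.53, and those of all genes 0.17 and 0.19 (log2). Median-ratio scaling moved all genes down by 0.17 in WT and 0.20 in cKO, with 34.3% higher and 33.3% lower in WT and 38.1% and 37.0% in cKO. Under it WT kept 3 higher and 4 lower members, and cKO had 2 and 7. The names of the IL-4 libraries carry numbers far from those of the NT and LPS libraries, and the treatment cannot be told apart from that numbering. The summed neutrophil markers also stood higher with IL-4, at 722 CPM in WT and 949 in cKO against 138 and 147 with NT, and of the 9 markers compared in WT 8 were higher. In WT, S100a9 rose from 13 to 3451 counts and Ngp from 8 to 2908. All 3 monocyte markers were higher as well, with a sum of 7.29 CPM with NT and 79.97 with IL-4 in WT and of 15.8 and 189 in cKO, and in WT Ccr2 was 10.2-fold higher and Ly6c2 went from 5 to 391 counts. The part of these markers in the values of the Fc receptors was not tested. With LPS the summed level was 507 in WT and 435 in cKO, of which Csf3r made up 493 and 415.

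Around these receptors, other genes of the pathway were counted from lists. With LPS in WT, 11 of 18 other activating receptors of the ITAM adaptors were higher and 7 lower (median 0.40, beside -0.70, and 22.9% higher and 64.8% lower, over all genes). Clec4e (Mincle, which pairs with Fcer1g) was 14.7-fold higher and Treml2 6.05-fold higher, whereas Cd300lb, a Tyrobp-coupled receptor, was 11.6-fold lower. Of 18 other inhibitory receptors, a list chosen for ITIMs that also holds receptors without one, such as Siglec1 and Lilr4b, 5 were higher and 11 lower, among them Cd300lf at 4.89-fold higher and Lair1, a collagen receptor, at a log2 fold change of -2.40. Of 22 ITAM kinases and adaptors 12 were higher and 8 lower, with the kinase Src 6.98-fold higher, and of 7 ITIM phosphatases and partners 1 was higher and 4 lower, with Ptpn6 (SHP-1) 1.97-fold higher. Among 5 other Fc receptors 3 were higher and 2 lower, with Trim21, the cytosolic antibody receptor, 4.18-fold higher. In cKO the same lists gave 10 higher and 8 lower, 5 and 9, 13 and 8, 2 and 2, and of 4 other Fc receptors 2 and 2, beside 26.0% and 61.7%. Median-ratio scaling turned the inhibitory receptors to 9 higher and 5 lower in WT, beside 38.1% and 44.1% of all genes, and 9 and 4 in cKO, beside 39.8% and 44.0%, and gave 15 and 3 ITAM kinases and adaptors in WT and 14 and 2 in cKO, and 3 and 4 ITIM partners in WT and 5 and 2 in cKO.

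With IL-4 in WT, 8 of 17 other activating receptors were higher and 6 lower, beside 43.9% and 24.8% over all genes, and Clec7a (Dectin-1, which has an activating motif of its own) was 11.6-fold higher. Of 18 other inhibitory receptors 8 were higher and 9 lower, and Pecam1 was 32.0-fold and Siglece 21.5-fold higher from 45 and 34 counts in NT, while Lilrb4a fell (log2 -1.76). The kinase Fgr was 25.4-fold higher, and 14 of 22 ITAM kinases and adaptors were higher and 8 lower. Of 7 ITIM phosphatases and partners 3 were higher and 3 lower, with Inpp5d (SHIP1, the partner of Fcgr2b) 1.42-fold higher, and of 4 other Fc receptors 2 were higher and 2 lower, with Fcgrt, the neonatal Fc receptor, 2.02-fold higher. In cKO these lists gave 9 higher and 5 lower, 8 and 8, 15 and 4, 4 and 2, and 3 and 1, beside 46.7% and 27.8%. Under median-ratio scaling the ITAM kinases and adaptors in WT were 9 higher and 8 lower, beside 34.3% and 33.3% of all genes, and 14 and 5 in cKO.

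Loss of Zmynd8 in myeloid cells was compared within each treatment. Pira2 was higher in the cKO library of all 3 treatments, and no other gene of the 10 was past 1.2-fold in the same direction in all 3, although Trem1 could not be compared with NT. Under NT, 4 of 9 genes compared were higher and 2 lower, beside 28.1% higher and 31.7% lower among 12463 genes. With LPS 2 of 10 were higher and 1 lower, beside 27.0% and 17.4% of 12386, and with IL-4 6 of 10 were higher and none lower, beside 20.8% and 16.7% of 13245. The medians of the compared genes were 0.22, -0.15 and 0.28 (log2), and those of all genes -0.01, 0.04 and 0.01.

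Under NT the cKO library had less Fcgr4 and Fcgr1. Fcgr4 was 1.87-fold lower (log2 -0.90) and Fcgr1 1.76-fold lower (-0.81). Trem2 was 1.54-fold higher (0.62), Pira2 higher by 0.59 on the log2 scale, Tyrobp 1.49-fold (0.57) and Fcer1g 1.35-fold (0.43). In TPM, Tyrobp went from 2794 in WT to 3463 in cKO, still past 1.2-fold. Trem2 (1473 to 1697) and Fcer1g (1971 to 2213) lay within 1.2-fold on that scale. By counts Fcgr2b (-0.09), Fcgr3 (0.22) and Pirb (0.04) lay within 1.2-fold, but in TPM Fcgr2b passed it as lower, from 44.9 to 35.1. Trem1, with 6 counts in each library, was not compared.

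With LPS, Pira2 was 2.87-fold higher in cKO (log2 1.52, limits 1.44 to 1.61), from 63.8 to 183 CPM. Pira2 was already known to be among the genes most raised in this comparison when the 10 genes were chosen. Fcgr2b was 1.29-fold lower (-0.37), and Trem1 was past 1.2-fold at 0.50, with limits from -0.31 to 1.33 that include no difference. The other 7 genes lay within 1.2-fold, Fcgr1 at -0.16, Fcgr4 at -0.11 and Pirb at -0.08 among them. Under median-ratio scaling Fcer1g and Tyrobp joined Fcgr2b past 1.2-fold lower.

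With IL-4, Pira2 was 2.79-fold higher in cKO (1.48, limits 1.34 to 1.63), from 19.4 to 54.1 CPM. Fcgr4 was 1.41-fold higher (0.50), Pirb 1.29-fold (0.37), Fcgr2b 1.23-fold (0.30) and Fcgr1 higher by 0.26 on the log2 scale, the last at the edge of the 1.2-fold limit and within it under median-ratio scaling, where Fcgr3 passed the limit as lower. Trem1 stood at 0.51 with limits from -0.19 to 1.22. The adaptors (Fcer1g 0.01, Tyrobp -0.19), Trem2 (-0.05) and Fcgr3 (-0.25) lay within 1.2-fold.

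**Figure D3:**
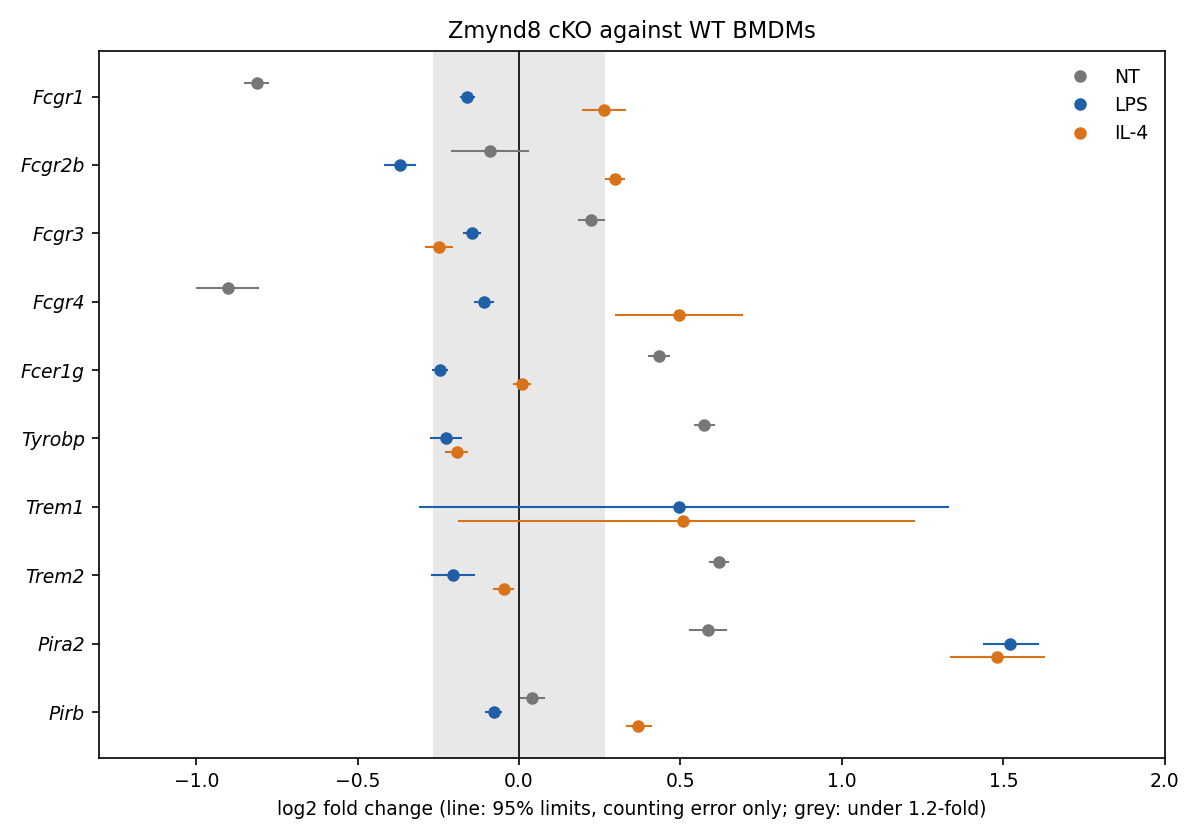
Log2 fold changes of Zmynd8 cKO against WT BMDMs with 95% counting limits for each gene and treatment, 1 library on each side, with the 1.2-fold limits marked. Pira2 lies at 0.59 with NT, 1.52 with LPS and 1.48 with IL-4, and Fcgr1 and Fcgr4 lie below the line with NT and above it with IL-4.

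Marker levels also differed between the cKO and WT libraries. The summed macrophage markers were lower in cKO in each treatment, at 18093 and 14817 CPM with NT, 12024 and 8345 with LPS, and 19784 and 15844 with IL-4. Lyz2, 1 of these markers and the locus that carries Cre in the cKO, differed by about as much as the sum, at 10951 and 7202, 6902 and 2892, and 8941 and 5245 CPM. The macrophage markers did not share one direction. With NT 2 of 9 were higher and 5 lower, beside 28.1% and 31.7% of all genes. With LPS 2 were higher and 4 lower, beside 27.0% and 17.4%, and with IL-4 2 and 4, beside 20.8% and 16.7%. The summed neutrophil markers were 138 and 147, 507 and 435, and 722 and 949. The 3 monocyte markers summed to 7.29 and 15.8, 233 and 257, and 79.97 and 189, and the 6 osteoclast markers to 69.5 and 146, 138 and 155, and 56.1 and 97.1, with Calcr at 0 in both libraries with NT and with IL-4. Ccr2, a monocyte chemokine receptor, was higher in cKO by 2.34-fold with NT, 2.94-fold with LPS and 2.49-fold with IL-4, and Ctsk, the osteoclast protease cathepsin K, by 4.92-fold, 2.08-fold and 10.3-fold. The osteoclast markers did not share one direction, since 2 of 4 compared were higher and 1 lower with NT, 2 and 2 of 5 with LPS, and 3 and 2 of 5 with IL-4, with Mmp9 lower with NT and LPS and Ocstamp lower with LPS and IL-4. The part of these differences in the values of the 10 genes was not tested.

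Reads of Pira2 are hard to assign, and so its values depend on how the counting treated copies. Of its 3462 transcript words of 50 bases, 3218 also occur in another gene, most of them in a single predicted PIR-A gene, Gm15922, and 34.0% of those of Pirb do. Summed over Pira2 and the 5 other PIR-A genes of the list that the table held, CPM values were 324 in WT NT, 435 in cKO NT, 198 in WT LPS, 363 in cKO LPS, 52.8 in WT IL-4 and 121.7 in cKO IL-4. The sum was 1.34-fold higher in cKO with NT, 1.83-fold with LPS (log2 0.87, limits 0.82 to 0.92) and 2.30-fold with IL-4 (log2 1.203, limits 1.11 to 1.29), so the cKO libraries were the higher ones on this measure too, with a smaller difference than for Pira2 alone. All 5 other PIR-A genes were called higher in cKO with LPS (median 0.73, beside 27.0% of all genes) and all 5 with IL-4 (1.42, beside 20.8%), and with NT 1 was higher and 1 lower, beside 28.1% and 31.7%. Under median-ratio scaling 4 of the 5 were higher with LPS, beside 22.7%, and the sum stayed higher in cKO, at 0.43 with NT, 0.82 with LPS and 1.19 with IL-4. With IL-4 against NT the sum was lower, at -2.61 in WT and -1.84 in cKO. With LPS its direction rests on the scaling, at -0.71 in WT and -0.26 (within 1.2-fold) in cKO by library totals, and at -0.10 (within) and 0.31 (higher) by median ratio. When Pirb was added as well, LPS against NT turned to 0.82 in WT and 0.71 in cKO, since Pirb holds most of those reads. On that sum over the listed PIR genes, cKO against WT was at 0.20 with NT and 0.09 with LPS, both within 1.2-fold, and at 0.50 with IL-4. Lilra6, Gm15925 and Gm15930 share 437, 448 and 348 words with Pira2 but were not on the list, so reads given to them are in neither sum.

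The other pathway genes were counted in cKO against WT as well, beside all-gene shares of 27.0% higher and 17.4% lower with LPS, 20.8% and 16.7% with IL-4, and 28.1% and 31.7% with NT. With LPS, 4 of 18 other activating receptors were higher and 3 lower, 6 of 18 other inhibitory receptors were higher and 1 lower, and 17 of 22 ITAM kinases and adaptors lay within 1.2-fold, with 2 higher and 3 lower. Siglece, an inhibitory sialic acid receptor, was at 1.28 (log2), from 120 to 275 counts. With IL-4, 12 of 17 other activating receptors were higher and 4 lower, with Clec4e at 1.52 and Clec7a at -0.57, and 10 of 18 other inhibitory receptors were higher and 3 lower, with Siglece at 1.88 and Pilra at 1.67. Of the ITAM kinases 7 of 22 were higher and 2 lower, and all 7 ITIM phosphatases and partners lay within 1.2-fold. With NT, 5 of 17 activating receptors were higher and 5 lower, 5 of 18 inhibitory receptors were higher and 4 lower, and 3 of 22 kinases and adaptors were higher and 8 lower, with Pilra at 1.37 and Pik3ap1 at -0.84. Of the ITIM partners 1 of 7 was higher and 2 lower with NT, and 1 of 7 higher with LPS. Of the 4 other Fc receptors compared, 1 was higher and 2 lower with NT, 1 and 1 with LPS, and 3 and 1 with IL-4.

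The genes nearest in pattern were sought for the 3 members that varied most over the 6 BMDM libraries, as the root mean square difference of centred log2 levels among 9928 genes. Nearest to Fcgr4 were Pou3f1 (0.195), Akap12 (0.333) and Il1rn (0.348), the interleukin-1 receptor antagonist, which gave 567, 519, 8945, 8617, 113 and 202 CPM. Nearest to Fcgr2b were Gm26584 (0.314), Pde4b (0.368), a cAMP phosphodiesterase, and Birc3 (0.387). Nearest to Fcgr1 were Hpse (0.220), which encodes heparanase, Gpsm2 (0.239) and Hk3 (0.242), a hexokinase. Fcgr2b varied 18.2-fold, Fcgr1 15.2-fold and Pira2 13.9-fold from lowest to highest library, whereas Fcer1g varied only 2.54-fold and Fcgr3 2.94-fold.

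In the Zmynd8-edited lines most of the 10 genes were well represented. Values are CPM for WT Zmynd8, D/E-A and Zmynd8 KO in this order, while the fold changes use the deposited values of each table. Fcgr1 gave 1005, 1200.4 and 1155, Fcgr4 631, 542 and 603, Fcgr3 240.0, 405 and 323, and Fcgr2b 249, 414 and 399. The adaptor Fcer1g gave 1036, 787 and 929 and Tyrobp 453, 302 and 405. Fcgr1, Fcgr2b and Fcgr3 were thus lowest with WT Zmynd8, and Fcgr4 and both adaptors were lowest with D/E-A. Trem1 gave 42.6, 20.7 and 29.0, Trem2 219, 136 and 205, Pirb 564, 789 and 609, and Pira2 only 1.47, 2.18 and 2.99.

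**Figure D4:**
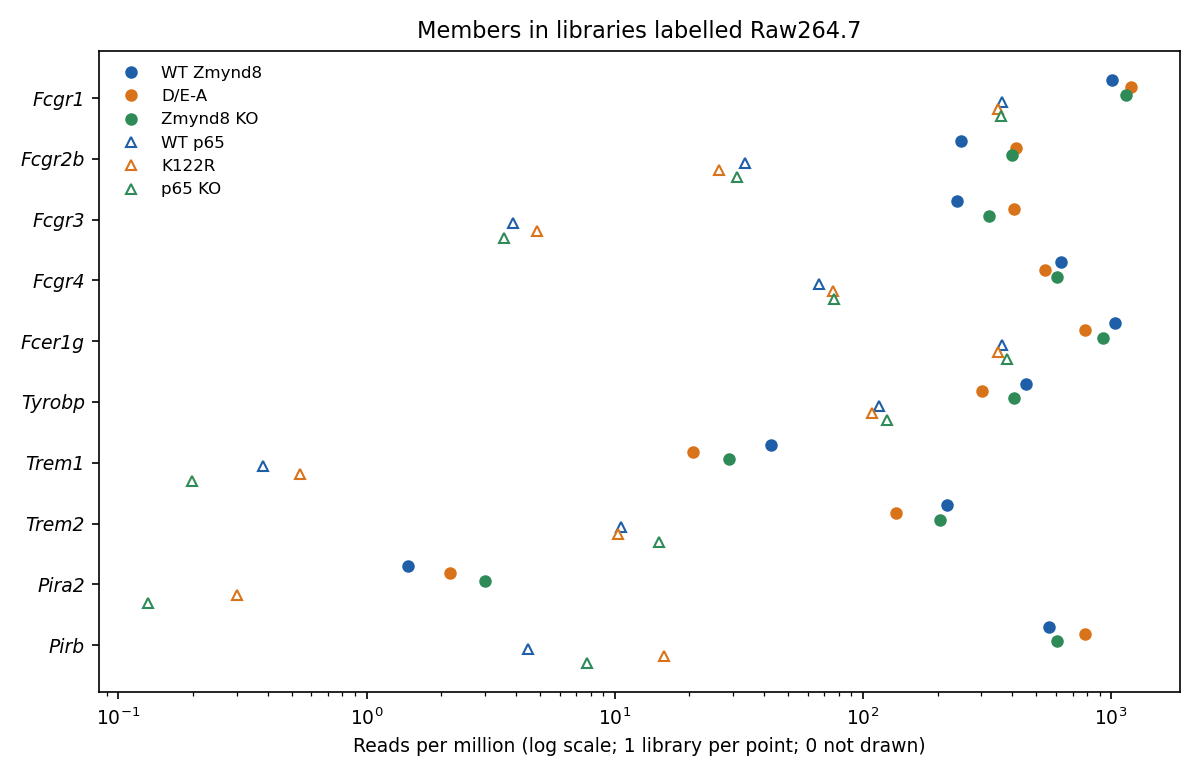
CPM (log scale) of the 10 genes in the 6 Raw264.7 libraries, 1 library per point, in the 2 sets of edited lines, with Pira2 at 0 reads (WT p65) not drawn. Circles mark the Zmynd8 set, in which Fcgr2b and Fcgr3 are lowest with WT Zmynd8, and triangles the p65 set, in which Pirb is highest with K122R.

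Against WT Zmynd8, the D/E-A mutant library had 5 of 10 genes higher, 4 lower and 1 within 1.2-fold, beside 36.8% higher and 35.9% lower among 12769 genes. Its medians were 0.05 for the 10 genes and 0.02 for all. The low-affinity Fc receptors Fcgr3 (0.79, 1.73-fold) and Fcgr2b (0.76, 1.70-fold) were higher, as were Pirb (0.51) and Fcgr1 (0.29), and Fcgr4 was within 1.2-fold (-0.19). By library totals Fcgr1 came to 0.25, within 1.2-fold, which left 4 higher and 4 lower. Trem1 was lower by 1.01 (log2), from 783 to 372 reads, Trem2 by 0.65, Tyrobp by 0.55 and Fcer1g by 0.37. Both TREM receptors and both adaptors therefore stood lower in D/E-A. Pira2, with 27 and 39 reads, was at 0.59 with limits from -0.15 to 1.36.

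The Zmynd8 KO library had 4 of 10 genes higher, 1 lower and 5 within 1.2-fold against the same WT Zmynd8 library, beside 34.9% higher and 28.3% lower among 14523 genes, with medians of 0.10 and 0.07. Pira2 was at 1.09 (limits 0.43 to 1.81), from 27 to 63 reads, Fcgr2b at 0.75, Fcgr3 at 0.50 and Fcgr1 at 0.27, and Trem1 was lower by 0.48. By library totals Fcgr1 lay within 1.2-fold and 3 genes were higher. Fcer1g (-0.08), Tyrobp (-0.09), Trem2 (-0.03), Fcgr4 (0.01) and Pirb (0.18) lay within 1.2-fold. The PIR-A genes summed gave 354 and 709 reads, a log2 fold change of 0.88 (0.70 to 1.07) for KO against WT Zmynd8. For D/E-A the sum over the 5 genes listed went from 353 to 739 reads (1.13), and Pira6 alone from 200 to 512.

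In these 3 libraries the marker levels moved as well. Summed neutrophil markers were 10876 CPM with WT Zmynd8, 7487 in the KO and 5015 with D/E-A, with all 11 markers listed, and S100a8 stood at 2710, 1622 and 969. Csf3r of the same list rose instead, at 412, 458 and 548. Against WT Zmynd8, 6 of the 11 were lower and 5 within 1.2-fold in the KO, and 10 were lower and 1 higher with D/E-A. B cell markers summed to 189, 140 and 193 and T cell markers to 20.6, 18.2 and 19.5. Dendritic cell markers summed to 157, 127 and 87.8 in the same order, with 7, 7 and 6 of 7 listed. Most of that sum was Ccr7, at 137, 108 and 71.6, and Clec9a ran the other way, at 2.50, 6.08 and 6.64. Summed macrophage markers ran the other way, at 4713, 6158 and 9093. Trem1, Trem2, Tyrobp, Fcer1g and Fcgr4 were in the order of the neutrophil sum over the 3 libraries, and Fcgr1, Fcgr2b, Fcgr3 and Pirb in the order of the macrophage sum, and the part of these markers in the values was not tested. No source used here states whether the KO had the treatment of the other 2.

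The all-gene shares beside the following counts are 36.8% higher and 35.9% lower for D/E-A and 34.9% and 28.3% for the KO. Other pathway genes in D/E-A against WT Zmynd8 included 14 of 22 ITAM kinases and adaptors higher and 3 lower, with Pik3ap1 (BCAP) at 1.53 and Lyn, the kinase that phosphorylates both motif types, at 1.17, and Hcst (DAP10) at -1.41. Of 18 other activating receptors 6 were higher and 7 lower, of 18 other inhibitory receptors 8 and 3, of 7 ITIM partners 3 and 0, with Inppl1 (SHIP2) at 1.43, and of 7 other Fc receptors 4 and 3. In the KO these counts were 13 and 3 of 22, 11 and 4 of 19, 7 and 3 of 18, 3 and 0 of 7, and 2 and 2 of 7, with Pik3ap1 at 0.99 and Lyn at 0.83. By library totals the all-gene shares were 29.1% and 32.4% in the KO, and its counts became 11 and 4, 10 and 5, 4 and 3, 2 and 0, and 2 and 3. For D/E-A that scaling gave 34.9% and 37.5%, with 6 and 3 inhibitory receptors. Both comparisons share the WT Zmynd8 library.

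The p65-edited lines were all labelled as given LPS. In the order WT p65, K122R and p65 KO, Fcer1g gave 364, 349.8 and 380.2 CPM, Fcgr1 363, 350.0 and 359.7, Tyrobp 116, 109 and 126, and Fcgr4 66.5, 75.5 and 76.7. Fcgr2b gave 33.4, 26.4 and 31.1, Trem2 10.6, 10.3 and 15.1, Pirb 4.47, 15.9 and 7.73, and Fcgr3 3.89, 4.86 and 3.57. Trem1 had 6, 9 and 3 reads and Pira2 0, 5 and 2, so neither was compared. Fcer1g, Fcgr1 and Tyrobp lay within 1.2-fold of WT p65 in both other libraries, and Pirb varied most among the 8 compared.

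Pirb was 3.90-fold higher with K122R than with WT p65 (log2 1.96, limits 1.59 to 2.37), from 70 to 264 reads. It was also higher in the p65 KO, at 0.79 (0.35 to 1.24) and 117 reads. The deposited Rela value was 1571 with WT p65 and 5963 with K122R, so the mutation and the amount of Rela cannot be told apart. With K122R 3 of 8 genes compared were higher and none lower, beside 26.4% higher and 28.8% lower among 13510 genes. The other members past the limit were Fcgr3 at 0.46, with limits from -0.03 to 0.97, and Fcgr4 at 0.33. Library totals in place of the deposited scaling moved all genes down by 0.14 here, with 18.2% higher and 40.5% lower. Fcgr4 then fell within 1.2-fold and Fcgr2b became lower. In the p65 KO 2 of 8 were higher and none lower, beside 19.4% and 19.6% of 13484, namely Pirb and Trem2 (0.51), and Fcgr1 (-0.01), Fcer1g (0.06) and Tyrobp (0.11) were within 1.2-fold. The medians of the 8 genes were 0.08 in the KO and 0.09 with K122R, beside -0.02 for all genes in both. The PIR-A genes summed rose from 19 reads with WT p65 to 89 with K122R (2.25, limits 1.56 to 3.08) and to 46 in the KO (1.30, 0.53 to 2.18). PIR-A genes share transcript words with Pirb, so this sum may hold reads of Pirb. Both comparisons share the WT p65 library.

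**Figure D5:**
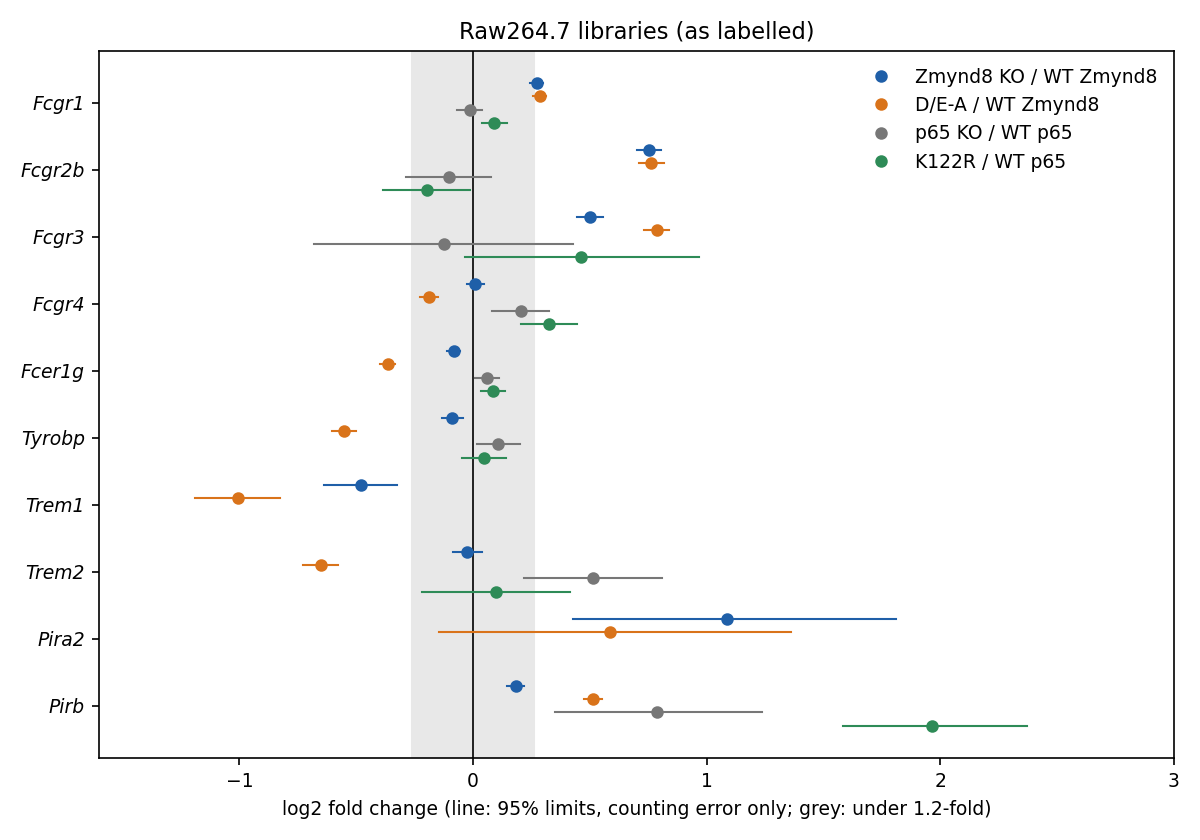
Log2 fold changes with 95% counting limits in the Raw264.7 lines, for Zmynd8 KO and D/E-A against WT Zmynd8 and for p65 KO and K122R against WT p65, with the 1.2-fold limits marked. Pirb with K122R lies at 1.96, Fcgr2b and Fcgr3 lie above the line in both Zmynd8-line comparisons, and Trem1 lies below it in both.

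With K122R, beside 26.4% higher and 28.8% lower over all genes, 10 of 12 other activating receptors were higher and 2 lower, and Clec4e was at 2.14, from 773 to 3290 reads. Of 22 ITAM kinases and adaptors 12 were higher and 3 lower, with Fgr at 1.73, and of 16 other inhibitory receptors 7 were higher and 3 lower. Of 7 ITIM partners 2 were higher and 1 lower, and of 5 other Fc receptors 1 and 1. By library totals, where the all-gene shares were 18.2% and 40.5%, these counts were 10 and 2, 8 and 3, 7 and 6, 1 and 1, and 1 and 2. In the p65 KO, Clec4e was at -1.27 and Syk, the kinase that binds the ITAMs of both adaptors, at -0.78. There, beside 19.4% and 19.6% over all genes, 7 of 12 activating receptors were higher and 3 lower, 2 of 22 kinases and adaptors higher and 6 lower, 4 of 15 inhibitory receptors higher and 1 lower, 1 of 7 ITIM partners higher and none lower, and of 5 other Fc receptors 1 and 1. Macrophage markers summed to 1995, 2320.1 and 2419 CPM with WT p65, K122R and p65 KO, and neutrophil markers to 8.11, 27.4 and 5.62, most of it Csf3r. Osteoclast markers summed to 67.9, 138 and 111, all 6 being listed and Calcr at 0 with K122R and in the KO, and of the 4 compared 3 were higher and 1 lower with K122R and 4 higher in the KO. Dcstamp, a fusion receptor of osteoclasts, stood at 24.8, 84.5 and 46.1, in the order of Pirb over the 3 libraries, and Ocstamp, its companion in fusion, at 27.5, 20.6 and 42.2, which is another order. The part of these markers in these values was not tested.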

How the data were processed

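Of 47 samples in the series, 12 RNA-seq libraries were analysed and 35 samples were not analysed here. Per the methods, BMDM reads (50-base single-end) were aligned to the mm10 transcriptome with TopHat. The submitters' processing notes name Bowtie 0.12.2, CASAVA 1.4, mm10 and mm8, with no roles. For BMDMs the authors deposited estimated counts per gene (75.2% to 76.6% of those above 0 were whole), rounded here, and TPM values. For Raw264.7 the authors deposited a signal, gene reads divided by a size factor. Whole reads were recovered for every listed gene (within 0.1 reads, or the rounding of large values) but Zmynd8 in the Zmynd8 KO column. Between 2 and 431 rows of each BMDM table named no annotated gene, held 0 counts and were left out, as were up to 2 rows of a Raw264.7 table with a repeated symbol and 2 columns of values headed by no sample. The authors' fold changes and p-values were not used.

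Log2 fold changes were computed in Python 3.11.15 (pandas 2.3.3, scipy 1.17.1) as the ratio of count plus 0.5 per library total (BMDMs) or of deposited value plus 0.5 (Raw264.7), in 11 comparisons of 1 library with 1 library, over genes whose mean count reached 10. The interval code was tested on simulated data. Alternatives were TMM (edgeR 4.0.16 in R 4.3.3), median-ratio scaling, TPM, other pseudocounts, no filter, a fold of 1.5 and sums over near-identical genes.

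The 10 genes and the gene lists were chosen with earlier results of these data known. All 10 genes were named. From each list, at most the 3 highest and 3 lowest genes past 1.2-fold whose mean count reached 100 could be named, and the 3 genes nearest in pattern were named for the 3 members with the widest range. Positions are from GENCODE vM21 on GRCm38.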

Additional observations from a re-analysis of the deposited data

Results flagged for a closer look

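The difference between cKO and WT BMDMs had opposite signs in different treatments for 3 of the 10 genes, each past 1.2-fold on both sides, beside 27.5% of the 12589 genes compared in at least 2 treatments, so the share is near that of all genes and is no result about these members. None of these differences was tested, since each condition was 1 library. Fcgr4 was lower in cKO with NT (log2 -0.90) and higher with IL-4 (0.50), a difference of 1.398 between the treatments. Fcgr1 was lower with NT (-0.81) and higher with IL-4 (0.26), a difference of 1.08, and its value with IL-4 lies at the edge of 1.2-fold. Fcgr2b was lower with LPS (-0.37) and higher with IL-4 (0.30), a difference of 0.67. Under median-ratio scaling, counted here after seeing the data, Fcgr1 with IL-4 lay within 1.2-fold, while Fcer1g and Tyrobp, higher in cKO with NT, passed the limit as lower with LPS, so that 4 of the 10 genes had opposite signs, beside 27.2% of all genes. For Fcgr4 and Fcgr1 the cKO NT library lay between its WT partner and the IL-4 libraries.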

How the results depend on the processing

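No paired analysis of cKO and WT over the treatments was run, since no test between conditions was run. With a single library per condition no replicate could be left out. Of 62 counts of members past the fold under alternatives, 52 stayed within 1.5 times the reported count. In cKO against WT with LPS, 3 became 5 with median-ratio scaling and 5 with TMM, beside 44.1% and 44.3% of all genes past the fold in either direction. A fold of 1.5 gave 1 in that comparison, 1 in place of 6 with IL-4, 2 in place of 5 for Zmynd8 KO, 5 in place of 9 for D/E-A, 1 in place of 2 for p65 KO and 1 in place of 3 for K122R, beside 15.1%, 15.8%, 29.2%, 43.7%, 13.1% and 24.5% of all genes. Without the filter on low counts p65 KO gave 4 and K122R 5, beside 58.3% and 68.1%, through Pira2 and Trem1 at 9 reads or fewer. Of 390 log2 fold changes under alternatives, 205 moved by less than their counting limits, 179 moved beyond them and 6 called values changed sign. Pira2 with LPS in cKO came to 0.023 with median-ratio scaling, 0.007 with TMM and 0.71 when the listed PIR genes were summed. Pira2 with LPS in WT came to 0.82 when summed. Fcgr3 summed with Fcgr2b came to 1.23 with IL-4 in cKO and to -0.11 with K122R. The sums differ because they take in a more abundant neighbour. An exact binomial test of the recovered reads, added after seeing the data, compares libraries and not conditions. It called 5 members for Zmynd8 KO, 8 for D/E-A, 2 for p65 KO and 2 for K122R, beside 44.4%, 61.4%, 20.2% and 38.4% of all genes. The summed PIR-A genes and the gene lists under other scalings were also added after seeing the data. Depth limits Trem1 in BMDMs and Trem1, Pira2, Fcgr3 and Pirb in the p65 lines.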
